A study of Mus musculus with 25 samples.

Results

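Toll-like receptor and NF-κB signalling genes were followed as 1 set of 40 genes, named as a list of receptors, co-receptors, adaptors, kinases, transcription factor subunits, inhibitors and target genes, and all 40 were found among the 41388 genes counted in 25 mouse liver RNA-seq libraries. The mice were C57B/6J by their labels, male littermates aged 20 wk, and wild-type (WT) or carrying the SIRT1 LKO genotype, in which Sirt1 flanked by LoxP sites is deleted by Cre recombinase under the albumin promoter, so that hepatocytes are the cells targeted. Per the paper, the WT littermates also had Sirt1 flanked by LoxP sites, and its breeding scheme separates the genotypes by Cre. All mice received an adeno-associated virus of serotype AAV8, either an empty vector (EV) or a vector carrying NAMPT behind the thyroxine-binding globulin promoter, which is also active mainly in hepatocytes. The 5 groups were chow WT EV (n = 3), Western diet (WD) WT EV (n = 6), WD WT NAMPT (n = 6), WD LKO EV (n = 5) and WD LKO NAMPT (n = 5), with 12 wk of diet, and each library came from the liver of 1 mouse. A general treatment label names SIRT1 as the vector's insert, whereas each library's title names NAMPT. The titles were used here.

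Toll-like receptors sense microbial lipids, proteins and nucleic acids at the cell surface or inside endosomes. Most of them signal through the adaptor MYD88, IRAK kinases and TRAF ubiquitin ligases to the IκB kinase (IKK) complex, which marks IκB proteins for destruction and so frees NF-κB dimers to enter the nucleus. NF-κB then drives cytokine and adhesion genes together with its own inhibitors, which close the loop. In the liver many of these receptors are strongest in Kupffer cells, the resident macrophages, and in recruited myeloid cells, while hepatocytes also carry much of the pathway. In whole-liver RNA, more cells of a type and more RNA per cell cannot be told apart.

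The libraries held 20166175 to 32937326 counted reads. Levels are given as CPM, the count of a gene scaled to the library's total, corrected by trimmed mean of M values (TMM) factors, and a gene was called where limma's test across 14065 genes gave a Benjamini-Hochberg adjusted p of 0.05 or less. All 40 genes passed the filter on low counts (over 1 CPM in at least 2 libraries), though Tnf would not have passed without the WD WT NAMPT libraries. The p-values measure the spread between these mice. As a label check, Sirt1 had a mean of 8.86 ± 0.573 CPM across the 6 WD WT EV libraries (± SD) against 8.57 ± 1.34 CPM across the 5 WD LKO EV libraries (log2 difference -0.07 ± 0.10 SE, adjusted p = 0.99). In the NAMPT pair Sirt1 was at 8.58 ± 0.617 CPM in the WT and 9.82 ± 1.36 CPM in the LKO libraries (log2 difference 0.19 ± 0.11 SE, adjusted p = 0.237) and was not called in that pair. These are reads over the whole gene and do not show which exons remained, so LKO is used below as the label of a library. Nampt had a mean of 47.4 ± 6.46 CPM with the empty vector and of 59.5 ± 10.6 CPM with the NAMPT vector in WD WT livers (log2 difference 0.34 ± 0.16 SE, adjusted p = 0.144), and in LKO livers of 56.1 ± 12 and 79.9 ± 28.4 CPM (0.41 ± 0.16 SE, adjusted p = 0.403). The fit gave its lowest quality weights to WD WT NAMPT replicates 6, 2 and 1 (0.336, 0.401 and 0.506) and to WD LKO NAMPT replicates 3 and 1 (0.410 and 0.571).

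Among the 40 genes, the levels per kilobase of exon in the WD WT EV livers covered a wide range. Rela, the widely used NF-κB subunit, was the highest at 21.7 ± 2.39 CPM per kilobase (SD, n = 6), and Chuk, an IKK kinase subunit, followed at 20.8 ± 2.44, which did not differ from it beyond their spread. Nfkbia, the main IκB inhibitor, stood at 18.7 ± 3.24 CPM per kilobase. The receptors were low. Tlr5, the flagellin receptor, led them at 5.98 ± 1.31 CPM per kilobase, Tlr3 stood at 1.82 ± 0.405 and Tlr2 at 1.36 ± 0.441, and the other Toll-like receptors lay between 0.199 (Tlr6) and 0.817 (Tlr4). Traf1 was the lowest of all, at 0.152 ± 0.0519 CPM per kilobase.

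The first comparison set the NAMPT vector against the empty vector in WT livers on Western diet, where Nampt itself was not called. Of the 40 genes, 20 were higher in WD WT NAMPT than in WD WT EV and 0 were lower, which is 50% called higher against a background of 7.67% of all 14065 genes called higher and 5.77% called lower. The median log2 fold change was 0.43 over the set and 0.0041 over all genes tested, and 34 of the 40 values were positive. The calls covered 2 of 5 surface receptors, 3 of 5 endosomal receptors, 1 of 2 co-receptors, 2 of 5 adaptor and IRAK genes, 0 of 3 TRAF genes, 1 of 4 IKK genes, 4 of 5 NF-κB subunits, 4 of 7 inhibitors and feedback genes and 3 of 4 targets. In no gene of the set did the 6 NAMPT libraries lie wholly above the 6 EV libraries (background 0.37% of all genes). At an unadjusted p under 0.05 the count was 27 of 40, against 30.3% of all genes, of which 26 were higher, and Chuk was the exception (log2 fold change -0.24 ± 0.10 SE, adjusted p = 0.112).

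**Figure D1:**
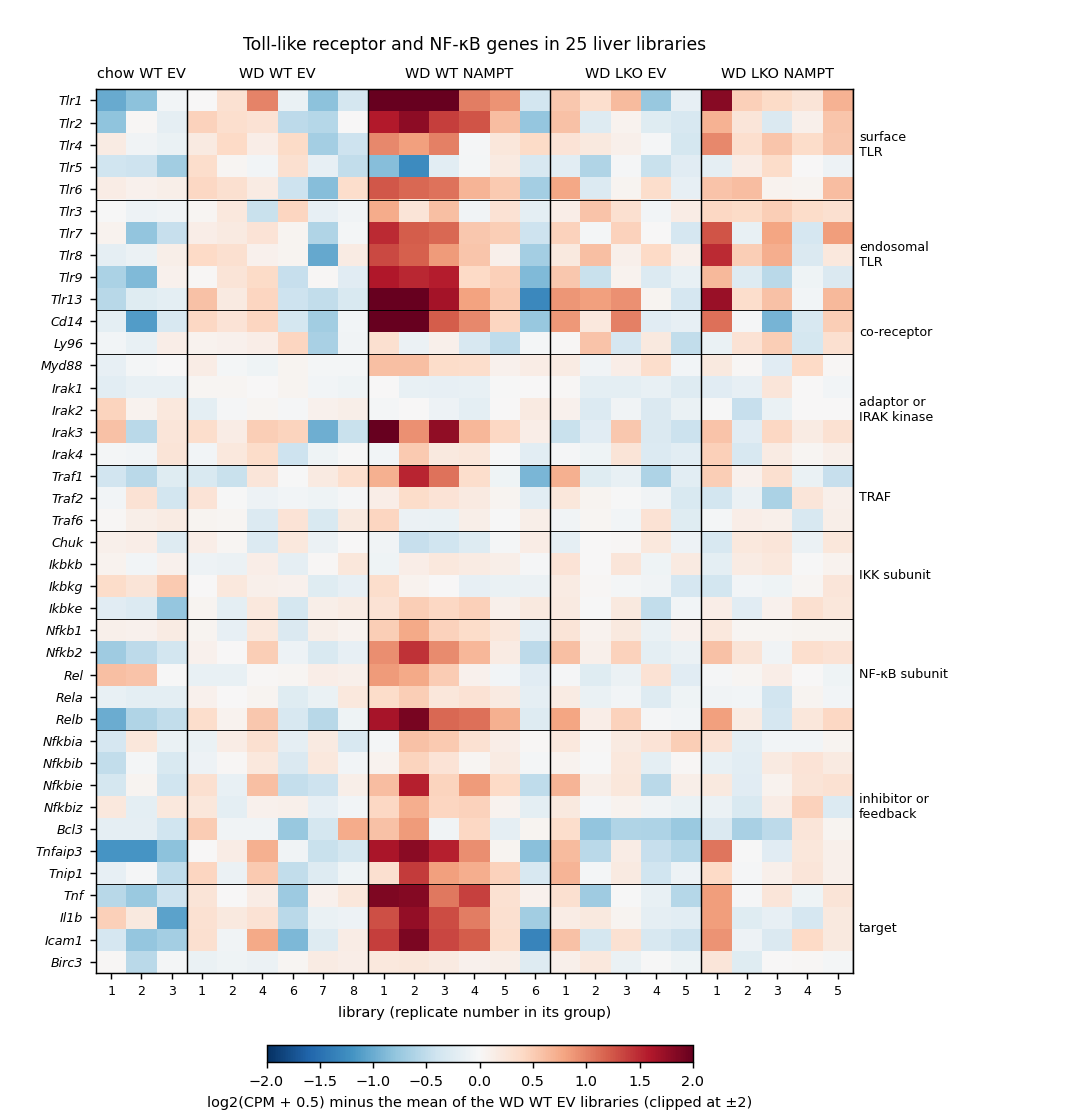
Levels of the 40 genes (rows, grouped by role) in each of the 25 libraries (columns, by group and replicate number), as log2(CPM + 0.5) minus the mean of the 6 WD WT EV libraries, with color clipped at 2 in either direction. In the WD WT NAMPT group replicates 1 to 4 are red for most receptors, subunits, inhibitors and targets, replicate 5 is paler, and replicate 6 is at or below the empty-vector level. In the WD LKO NAMPT group replicate 1 is the red column.

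Among the surface receptors, Tlr1 had the largest change. TLR1 pairs with TLR2 to bind bacterial lipopeptides. Tlr1 ranged from 0.496 to 2.98 CPM in WD WT EV (median 1.18) and from 0.862 to 7.71 CPM in WD WT NAMPT (median 4.95). WD WT NAMPT replicates 1 to 4 stood at 7.71, 7.14, 6.82 and 3.08 CPM, above every EV library, and replicates 5 and 6 lay within the EV range. The change was 3.30-fold (log2 1.72 ± 0.43 SE, adjusted p = 0.0152). Tlr2 went from a median of 4.45 CPM (2.48 to 5.57) to a median of 10.6 CPM (2.10 to 14.8), and the change was 2.31-fold (log2 1.21 ± 0.27 SE, adjusted p = 0.0122). Tlr6, the other partner of TLR2, had a log2 fold change of 1.38 ± 0.48 SE and missed the threshold (adjusted p = 0.0553), with 1 to 19 reads in the EV libraries. Tlr1 and Tlr6 are close copies: 15.4% of the 50-base stretches in Tlr1 transcripts and 12.3% of those in Tlr6 transcripts also occur in another gene, mainly each other, so part of their reads may not have been assignable to 1 of them. Tlr4, the lipopolysaccharide receptor, came to a log2 value of 0.47 ± 0.22 SE (adjusted p = 0.152) and was called by DESeq2 and without WD WT NAMPT replicate 4, and Tlr5 had -0.27 ± 0.17 SE (adjusted p = 0.276).

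The endosomal receptors bind nucleic acids. TLR13 recognizes bacterial ribosomal RNA, TLR7 and TLR8 sense single-stranded RNA, TLR9 senses unmethylated CpG DNA and TLR3 senses RNA duplexes. Tlr13 lay between 1.49 and 3.71 CPM in WD WT EV (median 2.22) and between 0.646 and 11.6 CPM in WD WT NAMPT (median 6.39). Both ends of the NAMPT range lay outside the EV range, since replicate 6, at 0.646 CPM, was below all 6 EV libraries. Its fold was 2.37 (log2 1.25 ± 0.41 SE, adjusted p = 0.0443). Tlr9 rose by a log2 value of 1.02 ± 0.33 SE (adjusted p = 0.0414) and Tlr7 by 0.89 ± 0.29 SE (adjusted p = 0.0466). Tlr8 (0.68 ± 0.29 SE, adjusted p = 0.121) and Tlr3 (0.26 ± 0.15 SE, adjusted p = 0.254) were not called.

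Cd14, the co-receptor that hands lipopolysaccharide to TLR4, ranged from 2.15 to 5.27 CPM in WD WT EV (median 4.14) and from 2.05 to 28.5 CPM in WD WT NAMPT (median 8.63). Replicates 1 and 2 of the NAMPT group, at 19.2 and 28.5 CPM, stood far above the other 4, which lay between 2.05 and 9.42 CPM. The change was 2.27-fold (log2 1.18 ± 0.38 SE, adjusted p = 0.0418). Ly96, which encodes the TLR4 partner MD-2, came to a log2 value of -0.17 ± 0.22 SE (adjusted p = 0.628), so the pair of co-receptors did not give the same call.

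Among the adaptor and IRAK genes, Irak3 and Myd88 were called. Irak3, which encodes an IRAK family member that restrains the pathway, ranged from 0.454 to 2.15 CPM in WD WT EV (median 1.74) and from 1.56 to 7.14 CPM in WD WT NAMPT (median 2.77). Its high values came from replicates 1 and 3 (7.14 and 5.95 CPM). Its change was 2.45-fold (log2 1.29 ± 0.39 SE, adjusted p = 0.0305). Irak3 shares 192 exonic bases with Tmbim4 on the other strand, and whether the counting used strand is not given in the sources used here. Myd88 was 1.29-fold higher (log2 0.37 ± 0.10 SE, adjusted p = 0.0187), with the same limit for 290 exonic bases shared with Acaa1a. Irak1 (-0.12 ± 0.06 SE, adjusted p = 0.209), Irak2 (-0.08 ± 0.10 SE, adjusted p = 0.647) and Irak4 (0.13 ± 0.14 SE, adjusted p = 0.536), the positive kinases and kinase-like members, were not called. Of the TRAF genes Traf1, the inducible one, had the largest log2 value, 1.0 ± 0.41 SE, and missed the threshold (adjusted p = 0.101), while Traf2 and Traf6 had 0.19 ± 0.13 SE and 0.02 ± 0.11 SE.

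Of the IKK genes only Ikbke was called. Chuk, Ikbkb and Ikbkg encode the 2 kinases and the scaffold of the canonical complex, and their log2 fold changes ran from -0.24 to 0.16 with none called. Ikbke, which encodes an IKK-related kinase, ranged from 16.2 to 24 CPM in WD WT EV (median 22) and from 22.1 to 29.3 CPM in WD WT NAMPT (median 26.6), where replicates 1, 2, 3 and 4 lay above every EV library. Its change was 1.33-fold (log2 0.41 ± 0.13 SE, adjusted p = 0.0382), and 224 of its exonic bases are shared with a gene on the other strand.

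Relb, the partner of NFKB2 in the non-canonical pathway, had the smallest adjusted p of the set. It ranged from 2.15 to 5.13 CPM in WD WT EV (median 3.36) and from 2.75 to 14 CPM in WD WT NAMPT (median 7.96). NAMPT replicates 1 to 5 stood at 11.7, 14, 8.08, 7.83 and 5.85 CPM, all above the 6 EV libraries, and replicate 6 stood among them. Its change was 2.30-fold (log2 1.2 ± 0.24 SE, adjusted p = 0.00759). Nfkb2 was 1.64-fold higher (log2 0.71 ± 0.19 SE, adjusted p = 0.0173), Nfkb1 was 1.34-fold higher (log2 0.42 ± 0.09 SE, adjusted p = 0.0111) and Rela was 1.19-fold higher (log2 0.25 ± 0.08 SE, adjusted p = 0.0459). Rel, the subunit most used in lymphoid and myeloid cells, had a log2 fold change of 0.37 ± 0.16 SE and was not called (adjusted p = 0.107).

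The inhibitors and feedback genes rose in part. Tnfaip3 encodes the ubiquitin-editing enzyme that shuts off NF-κB signalling. Tnfaip3 ranged from 4.21 to 9.96 CPM in WD WT EV (median 5.75) and from 3.07 to 21.9 CPM in WD WT NAMPT (median 14.9). Replicates 1 to 4 of the NAMPT group were above every EV library, replicate 5 was within the EV range and replicate 6 was below it. The change was 2.08-fold (log2 1.06 ± 0.30 SE, adjusted p = 0.0254). Tnip1, which binds the TNFAIP3 protein, rose by a log2 value of 0.72 ± 0.18 SE (adjusted p = 0.0162), Nfkbie, an IκB protein, rose by 0.75 ± 0.24 SE (adjusted p = 0.0408) and Nfkbiz, a nuclear IκB protein, by 0.43 ± 0.14 SE (adjusted p = 0.0417). Nfkbia (0.29 ± 0.13 SE, adjusted p = 0.132), Nfkbib (0.16 ± 0.11 SE, adjusted p = 0.348) and Bcl3 (0.22 ± 0.22 SE, adjusted p = 0.526) were not called.

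The target with the largest change was Tnf, which encodes the cytokine TNF. Tnf ranged from 0.0916 to 0.675 CPM in WD WT EV (median 0.561), where the lowest library held 2 reads and the highest 16, and from 0.539 to 3.09 CPM in WD WT NAMPT (median 1.78). NAMPT replicates 1 to 5 lay above every EV library and replicate 6 lay within the EV range. The change was 3.52-fold (log2 1.82 ± 0.44 SE, adjusted p = 0.0137). Tnf passed the filter on low counts through this NAMPT group, where replicates 1 to 4 held 81, 128, 46 and 52 reads. Outside it only WD LKO NAMPT replicate 1 (36 reads) was over 1 CPM, so the call is not independent of the filter. Il1b, the interleukin 1β gene, was 2.19-fold higher (log2 1.13 ± 0.31 SE, adjusted p = 0.0212) and Icam1, an adhesion molecule for leukocytes, was 2.16-fold higher (log2 1.11 ± 0.30 SE, adjusted p = 0.0208). Icam1 shares 491 exonic bases with an unnamed gene on the other strand, ENSMUSG00000097432. Birc3, an apoptosis inhibitor, came to a log2 value of 0.15 ± 0.11 SE (adjusted p = 0.37).

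**Figure D2:**
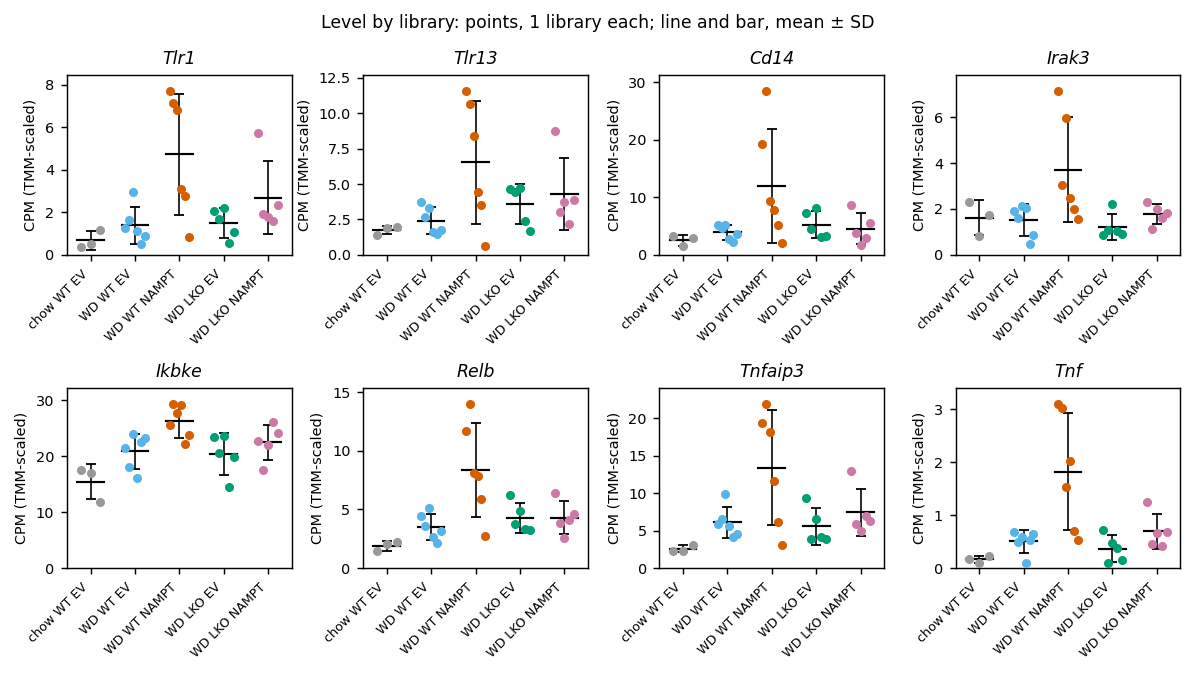
CPM (y axis, TMM-scaled, from 0) of the 8 genes with the largest called change in WD WT NAMPT against WD WT EV within each role, in the 5 groups (x axis). Points are single libraries, and lines with bars are the group mean ± SD. In the WD WT NAMPT group replicate 6 is the lowest point in every panel except that of Ikbke, where replicate 5 is (22.1 CPM), and replicate 6 lies inside the WD WT EV range for Tlr1, Irak3, Ikbke, Relb and Tnf and below it for Tlr13, Cd14 and Tnfaip3.

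The windows around the start sites of these genes are shown because NF-κB subunits bind the κB consensus motif and several of the called genes are textbook targets of their own pathway. RefSeq promoter windows (GRCm38.p6, 250 bases before to 50 after each annotated start, both strands searched, overlapping matches counted separately) were matched for 32 of the 40 genes. Cd14, Ikbkb, Ly96, Nfkb1, Nfkbiz, Relb, Tlr4 and Tlr7 had no entry in the table used. The κB consensus stood in at least 1 window of 9 of the 32 genes (28.1%), against 5.14% of all 27025 genes with a window. It stood in 5 of the 15 called genes that had a window and in 4 of the 17 that were not called (Bcl3, Nfkbia, Rel and Tlr3), and this difference was not tested. Those 5 follow, then Nfkbia and Rel as examples with the motif that were not called, each from 200 bases before to 20 after the start, 5′ to 3′ on the gene's strand, with κB matches in capitals.
Tlr2, chr3:83841589-83841808, minus strand: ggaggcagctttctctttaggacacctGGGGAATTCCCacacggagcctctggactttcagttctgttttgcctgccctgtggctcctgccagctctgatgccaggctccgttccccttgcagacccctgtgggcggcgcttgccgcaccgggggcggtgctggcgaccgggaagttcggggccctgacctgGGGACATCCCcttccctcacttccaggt
Nfkb2, chr19:46304537-46304756, plus strand: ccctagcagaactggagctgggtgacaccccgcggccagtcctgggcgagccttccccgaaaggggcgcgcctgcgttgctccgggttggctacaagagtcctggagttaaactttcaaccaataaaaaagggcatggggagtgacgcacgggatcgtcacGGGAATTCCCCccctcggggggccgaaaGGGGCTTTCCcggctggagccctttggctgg
Nfkbie, chr17:45555500-45555719, plus strand: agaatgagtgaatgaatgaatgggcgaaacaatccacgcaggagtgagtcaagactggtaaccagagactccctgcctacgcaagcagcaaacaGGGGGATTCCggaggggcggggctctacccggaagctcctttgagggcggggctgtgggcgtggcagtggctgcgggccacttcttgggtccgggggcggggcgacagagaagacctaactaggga
Tnfaip3, chr10:19015391-19015610, minus strand: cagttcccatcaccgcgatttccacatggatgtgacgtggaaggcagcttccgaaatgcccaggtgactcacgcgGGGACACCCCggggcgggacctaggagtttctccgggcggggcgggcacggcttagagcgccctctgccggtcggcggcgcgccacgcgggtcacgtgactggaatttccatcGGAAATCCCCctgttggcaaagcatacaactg
Tnip1, chr11:54962921-54963140, minus strand: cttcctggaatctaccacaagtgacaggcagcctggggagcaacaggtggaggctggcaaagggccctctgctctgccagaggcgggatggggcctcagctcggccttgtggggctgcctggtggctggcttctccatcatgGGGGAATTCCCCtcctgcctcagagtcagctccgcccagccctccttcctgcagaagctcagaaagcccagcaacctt
Nfkbia, chr12:55492628-55492847, minus strand: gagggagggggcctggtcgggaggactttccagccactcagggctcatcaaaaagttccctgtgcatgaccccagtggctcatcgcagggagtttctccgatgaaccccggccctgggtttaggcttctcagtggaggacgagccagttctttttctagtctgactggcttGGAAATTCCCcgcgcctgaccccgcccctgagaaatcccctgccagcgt
Rel, chr11:23770950-23771169, minus strand: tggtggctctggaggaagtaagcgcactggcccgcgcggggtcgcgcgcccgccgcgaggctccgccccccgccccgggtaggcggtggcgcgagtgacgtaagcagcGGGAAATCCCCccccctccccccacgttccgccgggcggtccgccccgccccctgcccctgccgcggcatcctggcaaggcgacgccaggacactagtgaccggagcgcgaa

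Nfkb2, Tlr2 and Tnip1 each held 3 matches in the stretch shown, counting overlapping ones, and Tnfaip3 held 2 that stood apart. Other annotated starts of Nfkb2, not shown, held 1 and 0 matches in the same stretch. In Tnip1 the 3 matches form 1 run of capitals, and Nfkbie held 1 match. Nfkbia and Rel, with 1 match and 2 overlapping matches, were not called in WD WT NAMPT, where their log2 fold changes were 0.29 and 0.37. A match describes these letters only and is no evidence of binding in these livers.

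Within the WD WT NAMPT group the libraries did not behave alike. Of the 20 called genes, 19 stood above the highest WD WT EV library in replicate 1, 20 in replicate 2, 19 in replicate 3, 20 in replicate 4, 7 in replicate 5 and 1 in replicate 6. For all 14065 genes tested the same share was 26.2%, 29%, 19.5%, 18%, 11.9% and 15.8%. Replicate 6 was the lowest of its group for 18 of the 20 genes and lay below the lowest WD WT EV library for 10 of them. Since the 20 genes were picked by this contrast, these counts describe the libraries and test nothing. The summed CPM of Nampt and Sirt1, mostly Nampt, stood at 71.9, 55.5, 85.4, 60.3, 66.4 and 69.2 in replicates 1 to 6. In WD WT EV this sum ran from 46.3 to 63.6 CPM. Replicates 2 and 4 thus lay inside the WD WT EV range and replicate 6 above it, and a relation of Nampt to the set was not tested.

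Genes on the macrophage and neutrophil marker lists moved with the set. Of the Kupffer cell list 5 of 9 genes were called higher in WD WT NAMPT (Cd5l, Marco, C1qa, C1qb and C1qc), of the recruited monocyte or macrophage list 6 of 10 (Itgam, Itgax, Cx3cr1, Trem2, Plac8 and Chil3) and of the neutrophil list 2 of the 4 tested (S100a9 and Csf3r). The summed Kupffer cell markers ran from 357 to 520 CPM in WD WT EV and stood at 880, 858, 956, 673, 564 and 336 CPM in WD WT NAMPT replicates 1 to 6. The summed recruited markers ran from 25.4 to 116 CPM in WD WT EV and stood at 153, 270, 153, 117, 87.6 and 25.4 CPM in the same 6 libraries, and the summed neutrophil markers ran from 2.89 to 8.49 CPM and stood at 23.1, 29.3, 17.2, 19.9, 8.28 and 3.77 CPM. Replicates 1 to 4, which were high for the 20 genes, lay above every WD WT EV library in all 3 sums, and replicate 6 had the lowest of each sum in its group. Of those lists, Ly6g had no read in 18 of 25 libraries and Mmp8 none in 11, while each Kupffer cell marker had reads in every library. Ly6g, Mmp8, Cxcr2 and Mpo were not tested. S100a8 and S100a9 are also made by monocytes, so the neutrophil list does not separate neutrophils from monocytes. Spp1 of the recruited list also stands in the cholangiocyte list and had a log2 value of 0.01. In WD WT NAMPT replicate 6 Spp1 held 306 reads, and Plac8, the next highest of that list, held 86. Of the hepatocyte markers 0 of 7 were called, of the T cell markers 0 of 4, of the plasmacytoid dendritic cell markers 0 of 3, of the natural killer cell markers 0 of 2 and of the cholangiocyte markers 0 of 5. Fcrla was the 1 of 4 B cell markers and Des the 1 of 5 stellate cell markers called higher, and of the sinusoidal endothelium markers 2 of 6 were lower (Clec4g and Fcgr2b). Fcrla would not have passed the filter on low counts without the WD WT NAMPT libraries. The part of the marker shift in the calls was not tested.

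**Figure D3:**
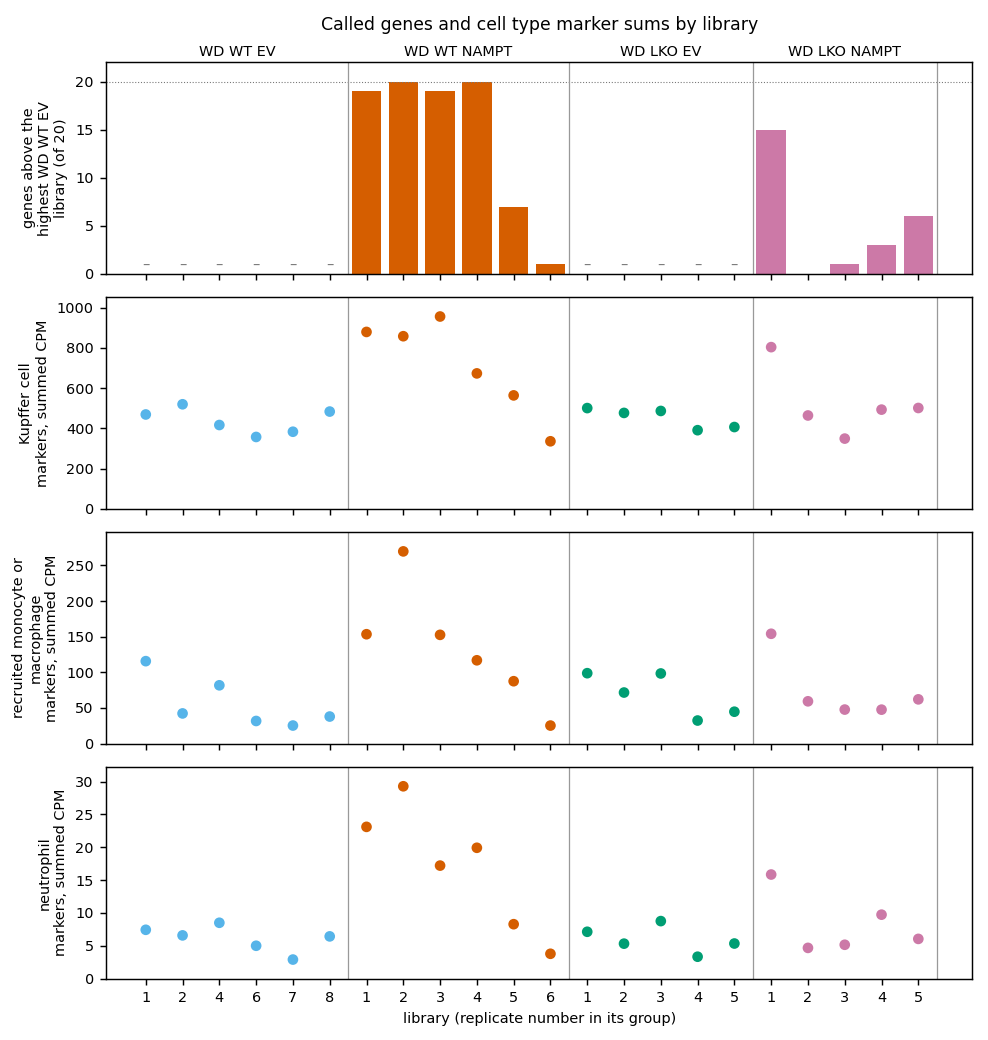
By library (x axis, replicate number within 4 groups), the top panel gives how many of the 20 genes called in WD WT NAMPT stand above the highest WD WT EV library (drawn for NAMPT groups only, a dash marks EV libraries), and the panels under it give summed CPM of the Kupffer cell, recruited monocyte or macrophage and neutrophil marker lists. WD WT NAMPT replicates 1 to 4 reach 19 or 20 genes and the highest marker sums of their group, and WD LKO NAMPT replicate 1 reaches 15 genes with a Kupffer cell sum of 804 CPM.

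The count of 20 rested on the weighting and on single libraries. It was 16 with DESeq2 (15 of the 20, and Tlr4), 4 with edgeR's quasi-likelihood test (Relb, Tlr1, Tlr2 and Tnf), 1 without quality weights (Relb) and 0 with 2 surrogate variables, where the median log2 fold change of 0.43 became 0.09, and it became 1 without WD WT NAMPT replicate 3 (Relb), 2 without WD WT EV replicate 2 (Relb and Tlr2), 6 without WD WT EV replicate 6 or WD WT NAMPT replicate 2, 10 without WD WT NAMPT replicate 1, 12 without WD WT EV replicate 7, 13 without WD WT EV replicate 8 and 24 without WD WT NAMPT replicate 5 or 6. Over 21 alternatives Relb kept its call in 20, Tlr2 in 18, Tnf in 17, Nfkb1 in 16 and Tlr1 in 15, and the other 15 genes in 6 to 13. With libraries scaled by size alone, 23 genes of the set were called, all higher, but the median log2 fold change of all genes then was 0.16 and 2010 of 2281 calls were higher, against 1079 of 1890 in the values above.

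In LKO livers the question was whether the NAMPT vector was followed by the same change. Of the 40 genes, 0 were called in WD LKO NAMPT against WD LKO EV, with a background of 0.00711% of all genes called in either direction. The median log2 fold change was 0.06, 26 of 40 values were positive, against 53.7% of all genes, and 1 gene had an unadjusted p under 0.05, against 9.63% of all genes. That gene was Tlr4, named after its values were seen. Tlr4 stood at 5.39, 5.06, 4.69, 4.29 and 3.30 CPM in WD LKO EV and at 8.90, 5.62, 6.63, 5.75 and 6.55 CPM in WD LKO NAMPT, and it was the 1 gene of the set whose NAMPT libraries all lay above its EV libraries (background 0.505%). Its log2 fold change was 0.47 ± 0.23 SE (adjusted p = 0.518), next to 0.47 ± 0.22 SE in WT livers, where it was called under 2 alternatives. The count was 0 with edgeR's quasi-likelihood test and with DESeq2 too.

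The largest log2 fold changes in this comparison were those of Tnf and Tlr6. Tnf stood at 0.724, 0.100, 0.475, 0.387 and 0.163 CPM in WD LKO EV and at 1.26, 0.460, 0.654, 0.423 and 0.679 CPM in WD LKO NAMPT, and the ranges overlapped (log2 0.89 ± 0.56 SE, adjusted p = 0.647). Tlr6 had 6 to 29 reads in WD LKO EV and 12 to 30 reads in WD LKO NAMPT (log2 0.67 ± 0.49 SE, adjusted p = 0.701). Relb, the gene with the steadiest call in WT livers, stood at 6.20, 3.76, 4.86, 3.32 and 3.26 CPM in WD LKO EV and at 6.39, 3.85, 2.57, 4.06 and 4.65 CPM in WD LKO NAMPT. Its log2 fold change there was -0.0041 ± 0.25 SE. Of the 5 WD LKO NAMPT libraries, replicate 1 held the highest value of its group for 15 of the 20 genes called in WT livers and had the highest Kupffer cell, recruited and neutrophil marker sums of its group (804, 154 and 15.8 CPM). No marker of the 3 lists was called in this comparison.

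The difference between the 2 NAMPT effects was tested directly as an interaction. It was called for 0 of the 40 genes, with 0.00711% of all genes called, and for 0 with edgeR's quasi-likelihood test and with DESeq2. At an unadjusted p under 0.05 there were 15 of the 40 genes, against 21.2% of all genes, of which 3 had a positive value, and the median log2 difference was -0.48, with -0.01 over all genes. Cd14 had the largest value, -1.52 ± 0.57 SE (adjusted p = 0.138), and Tlr13 the next, -1.25 ± 0.58 SE (adjusted p = 0.216). The smallest adjusted p, 0.0843, belonged to Relb (-1.21 ± 0.35 SE) and Nfkb1 (-0.46 ± 0.13 SE), which were chosen for mention after their values were seen. Those 2 genes were called without WD WT NAMPT replicate 5, without WD WT NAMPT replicate 6 and without WD LKO NAMPT replicate 1. Genes of the set thus passed the threshold in WT and not in LKO livers, and a difference between the effects was not shown.

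The NAMPT groups of both genotypes were also set side by side. In WD LKO NAMPT against WD WT NAMPT, 8 of the 40 genes were lower and 0 were higher, which is 20% against a background of 3.78% of all genes called lower and 4.18% called higher. All 8 were among the 20 genes called above. The comparisons share the WD WT NAMPT libraries, so the lists are not independent. Tnf, in both lists, also passed the filter on low counts through those libraries. The median log2 difference was -0.35 over the set. The 8 genes were 2 receptors (Tlr2 and Tlr9), 3 NF-κB subunits (Relb, Nfkb1 and Rela), Nfkbiz of the inhibitors and feedback genes and 2 targets (Tnf and Il1b).

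Tnf had the largest difference, from a median of 1.78 CPM (0.539 to 3.09) in WD WT NAMPT to values of 1.26, 0.460, 0.654, 0.423 and 0.679 CPM in WD LKO NAMPT (log2 -1.46 ± 0.42 SE, adjusted p = 0.0378). Tlr9 ranged from 0.754 to 6.57 CPM in WD WT NAMPT (median 4.40) and stood at 3.14, 1.45, 1.09, 1.69 and 1.39 CPM in WD LKO NAMPT (log2 -1.28 ± 0.35 SE, adjusted p = 0.0335). Il1b ranged from 1.02 to 7.85 CPM (median 5.01) and stood at 3.91, 1.58, 1.70, 1.44 and 2.31 CPM (log2 -1.22 ± 0.33 SE, adjusted p = 0.0292). For these 3 genes WD WT NAMPT replicates 1 to 3 lay above all 5 WD LKO NAMPT libraries, while replicates 5 and 6 did not, so the groups overlapped.

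Tlr2 ranged from 2.10 to 14.8 CPM in WD WT NAMPT (median 10.6) and stood at 6.70, 4.73, 3.14, 4.23 and 6.01 CPM in WD LKO NAMPT (log2 -0.93 ± 0.27 SE, adjusted p = 0.0382). Relb ranged from 2.75 to 14 CPM (median 7.96) and stood at 6.39, 3.85, 2.57, 4.06 and 4.65 CPM (log2 -0.91 ± 0.23 SE, adjusted p = 0.0251). Nfkbiz ranged from 7 to 13.7 CPM (median 11) and stood at 7.43, 6.41, 9.03, 11.3 and 6.58 CPM (log2 -0.52 ± 0.15 SE, adjusted p = 0.0336). For the abundant subunits the differences were smaller. Nfkb1 ranged from 23.2 to 44.6 CPM (median 35.3) and stood at 30.6, 27, 27, 27.2 and 27.2 CPM (log2 -0.33 ± 0.10 SE, adjusted p = 0.0407). Rela ranged from 51.7 to 82.6 CPM (median 70) and stood at 55.8, 56.3, 44.9, 60.7 and 56 CPM (log2 -0.31 ± 0.09 SE, adjusted p = 0.0337).

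Of the myeloid markers, Marco, Itgam and Csf3r were called lower in the same comparison, 1 in each of the 3 lists. Lck of the T cell list, Fcrla of the B cell list and Sox9 of the cholangiocyte list were called lower too, and no marker of the other lists was called. Fcrla, as above, passed the filter on low counts through the WD WT NAMPT libraries. The part of these markers in the 8 calls was not tested. The 8 calls became 0 with edgeR's quasi-likelihood test, with DESeq2, without quality weights and with 2 surrogate variables. They were 0 without WD WT NAMPT replicate 2 or 3 or WD LKO NAMPT replicate 2, 3 or 5, 3 without WD WT NAMPT replicate 1, 5 without WD WT NAMPT replicate 4, 14 without WD LKO NAMPT replicate 1, 12 without WD LKO NAMPT replicate 4 and 18 without WD WT NAMPT replicate 5 or 6. Scaling by library size alone kept the count at 8, while the median of all genes shifted to -0.12 and 204 of 840 calls were higher, against 588 of 1120.

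**Figure D4:**
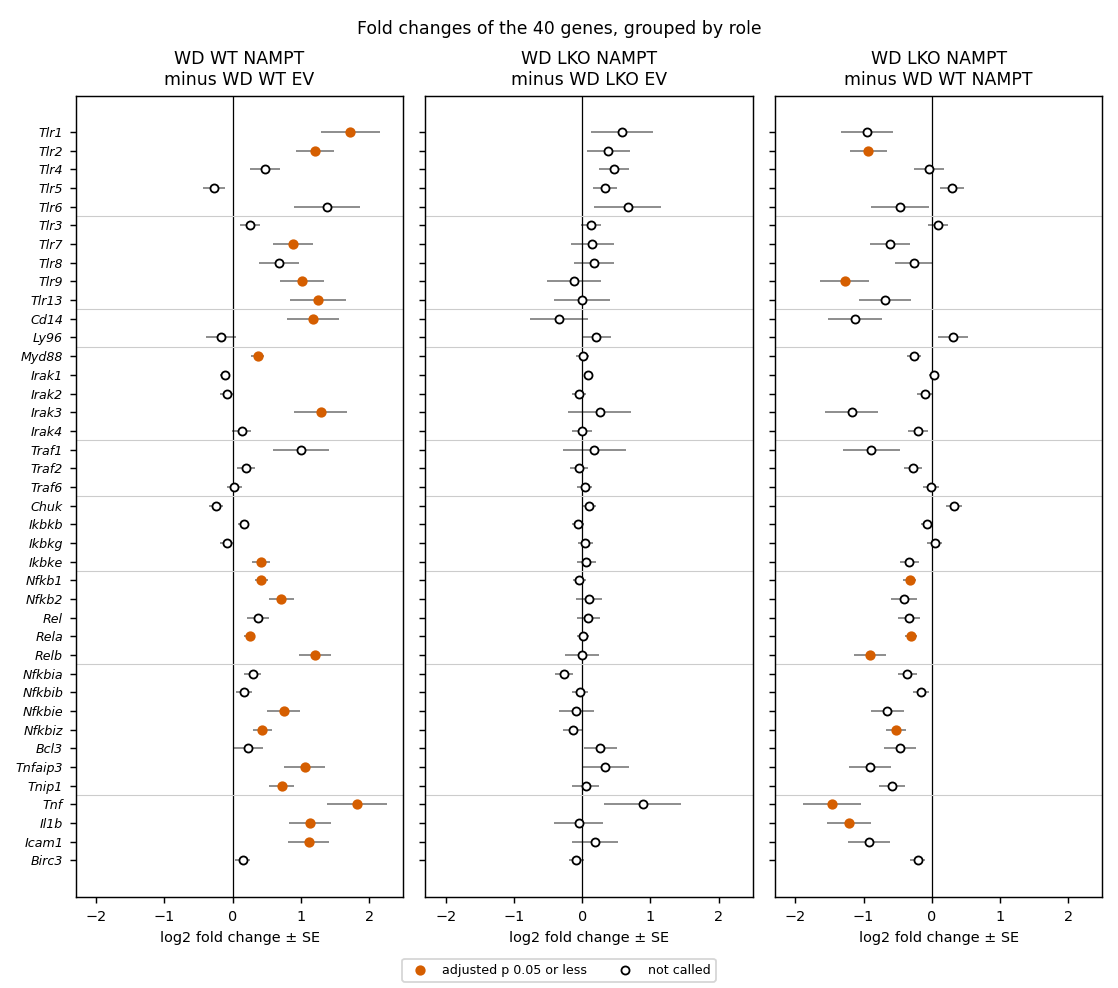
Log2 fold change ± SE (x axis) of the 40 genes (y axis, grouped by role) in 3 comparisons. Filled points passed an adjusted p of 0.05. The left panel has 20 filled points, all right of 0, the middle panel has none, and the right panel has 8, all left of 0.

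The genotype labels were also compared under the empty vector, where no difference in the set was detected. Of the 40 genes, 0 were called in WD LKO EV against WD WT EV (background 0.00711%), 2 had an unadjusted p under 0.05 (Irak1 and Bcl3, named after their values were seen), a share near the 6.33% of all genes, and edgeR's quasi-likelihood test and DESeq2 called 0. The largest log2 differences were 0.56 ± 0.43 SE for Tlr13 (adjusted p = 0.924) and -0.54 ± 0.57 SE for Tnf (adjusted p = 0.975). Tlr13 ranged from 1.49 to 3.71 CPM in WD WT EV and stood at 4.67, 4.41, 4.75, 2.40 and 1.71 CPM in WD LKO EV, so that 3 LKO libraries were above the WT range and 2 within it.

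Western diet against chow, both with the empty vector in WT mice, gave 2 calls in the set. Tnfaip3 was higher and Rel was lower, which is 1 gene in each direction of 40 (2.5%), below the background of 10.1% of all genes called higher and 12% called lower. Of the 40 values 29 were positive, against 49.5% of all genes. The median log2 value was 0.16 over the set and -0.0047 over all genes. Tnfaip3 stood at 2.32, 2.31 and 3.12 CPM in chow WT EV and ranged from 4.21 to 9.96 CPM in WD WT EV (median 5.75), with no overlap (log2 1.31 ± 0.46 SE, adjusted p = 0.043). Rel stood at 6.70, 6.59 and 4.26 CPM in chow WT EV and ranged from 3.78 to 4.75 CPM in WD WT EV (median 4.37), and the third chow library lay inside the WD range (log2 -0.59 ± 0.16 SE, adjusted p = 0.0106). The libraries did not overlap for 3 genes that were higher on Western diet (Tnfaip3, Irak1 and Nfkb2; background 7.66%) and for 1 that was lower (Ikbkg; background 8.45%).

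The largest log2 value against chow was that of Tnf, named after its values were seen, 1.62 ± 0.75 SE. Tnf was not called there (adjusted p = 0.121) and rested on 2 to 6 reads in the chow libraries. The count of 2 was 0 with edgeR's quasi-likelihood test, without quality weights and without chow replicate 1 or 2. It was 1 without chow replicate 3 or WD WT EV replicate 1 or 4 and 4 without WD WT EV replicate 7 or 8. Without WD WT EV replicate 2 or 6 it stayed at 2 while Tnfaip3 was lost. Over 18 alternatives Rel kept its call in 12 and Tnfaip3 in 6. Of all calls, 1414 of 3101 were higher, and 1053 of 3228 were higher with libraries scaled by size alone, where the 2 calls of the set were Ikbkg and Rel. With DESeq2 the 2 calls were Ikbkg and Tnfaip3. It was 6 with the compared groups only and 13 with replicate number as a block. The same comparison called 4 of 9 Kupffer cell markers higher (Cd5l, Folr2, C1qb and C1qc), where 10.1% of all genes were, while Marco stood at a log2 value of -1.20 ± 0.88 SE (adjusted p = 0.344). Of the recruited monocyte or macrophage markers 1 of 10 was higher, of the neutrophil markers 0 of 4 were called, and of the hepatocyte markers 3 of 7 were lower (Cps1, Fgb and Ass1). Nkg7 (natural killer cell), Lyve1 (sinusoidal endothelium) and Lrat (stellate cell) were called higher, and Cd79b (B cell) and Kdr (sinusoidal endothelium) lower. Their part in the result was not tested.

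Other genes of the pathway were taken from a list of adaptors, kinases, ubiquitin enzymes and cytokine receptors outside the set, of which 47 were tested. In WD WT NAMPT against WD WT EV, 7 of the 47 were higher and 2 lower, where all genes gave 7.67% higher and 5.77% lower, with a median log2 fold change of 0.12. Among the rises, Tnip3 and Cd40 would not have passed the filter on low counts without the WD WT NAMPT libraries, so these calls are not independent of it. The 3 largest rises among the better expressed were Il1rn, which encodes the interleukin 1 receptor antagonist (log2 1.42 ± 0.48 SE, adjusted p = 0.0482), Irf7, an interferon regulatory factor (0.94 ± 0.29 SE, adjusted p = 0.0318), and Cd180, a TLR4-related receptor (0.83 ± 0.24 SE, adjusted p = 0.025). The falls were Tab2, which links TRAF6 to the kinase TAK1 (-0.39 ± 0.12 SE, adjusted p = 0.0292), and Peli2, a ubiquitin ligase of the IRAK step (-0.32 ± 0.08 SE, adjusted p = 0.0169). In WD LKO NAMPT against WD LKO EV 0 of the 47 were called. In WD LKO NAMPT against WD WT NAMPT 2 were higher (Map3k7 and Ube2n) and 3 lower, near the 4.18% and 3.78% of all genes, among them Irf5 (-0.70 ± 0.20 SE, adjusted p = 0.0383) and Unc93b1, the chaperone of the endosomal receptors (-0.48 ± 0.13 SE, adjusted p = 0.0276). The remaining fall was that of Tnip3, with the same limit from the filter. Western diet against chow gave 7 higher and 4 lower, where all genes gave 10.1% and 12%. Of these the largest values were those of Cd36, a fatty acid and lipoprotein receptor (2.58 ± 0.29 SE, adjusted p = 1.01e-06), and Tlr12 (2.16 ± 0.32 SE, adjusted p = 3.87e-05), with Tnfrsf1b, a TNF receptor gene, at 0.59 ± 0.09 SE. The 3 largest falls against chow were Irf5 (-0.62 ± 0.21 SE, adjusted p = 0.033), Tirap, an adaptor of TLR2 and TLR4 (-0.33 ± 0.10 SE, adjusted p = 0.0231), and Peli1 (-0.30 ± 0.09 SE, adjusted p = 0.016).

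Textbook NF-κB target genes outside the set were read from a second list, of which 27 were tested. In WD WT NAMPT against WD WT EV, 11 of 27 were higher and 1 lower, where all genes gave 7.67% and 5.77%, with a median log2 fold change of 1.01. Ccl4 among the rises would not have passed the filter on low counts without the WD WT NAMPT libraries. The 3 largest rises among the better expressed were Gadd45b, a stress-response gene (2.33 ± 0.60 SE, adjusted p = 0.0167), Saa3, an acute-phase protein gene (1.57 ± 0.46 SE, adjusted p = 0.0281), and Cxcl10, a chemokine (1.29 ± 0.39 SE, adjusted p = 0.0309), and the fall was Sod2, the mitochondrial superoxide dismutase (-0.25 ± 0.08 SE, adjusted p = 0.0379). In WD LKO NAMPT against WD LKO EV 0 of the 27 were called. In WD LKO NAMPT against WD WT NAMPT 4 of 27 were lower, where all genes gave 3.78% lower and 4.18% higher, with Saa3 (-1.86 ± 0.50 SE, adjusted p = 0.0304), Zc3h12a (-0.75 ± 0.14 SE, adjusted p = 0.0107) and Tnfaip2 (-0.62 ± 0.16 SE, adjusted p = 0.0269) the largest among the better expressed, and 1 was higher, Sod2 (0.32 ± 0.08 SE, adjusted p = 0.027). Western diet against chow gave 3 of 27 higher and 3 lower, which is near the 10.1% and 12% of all genes, with Lcn2 (3.70 ± 1.14 SE, adjusted p = 0.0222) and Gadd45b (-1.91 ± 0.64 SE, adjusted p = 0.0346) at the ends. Cxcl1 (1.30 ± 0.45 SE) and Bcl2l1 (0.39 ± 0.09 SE) were the other rises, and Tnfaip2 (-0.53 ± 0.16 SE) and Xiap (-0.51 ± 0.13 SE) the other falls. For both lists the interaction and WD LKO EV against WD WT EV gave 0 calls.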

How the data were processed

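RNA from the livers of 25 mice was sequenced by the submitters, and 1 table per library was deposited, with raw counts, CPM and RPKM for each gene. Per the labels, the authors used bcl2fastq, STAR 2.5.1a and featureCounts 1.4.6-p5 of Subread on GRCm38, and the methods of the study name other versions of the last pair. The deposited count columns were used, while the deposited CPM and RPKM values of the authors were recomputed from the counts and lengths and agreed within a relative deviation of 5.9e-14. Library totals ran from 20166175 to 32937326. Replicates are libraries of separate mice, and within a group the most alike pair still differed by a chi-square of 13.7 per degree of freedom.

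Genes above 1 CPM in at least 2 libraries were kept, 4 ribosomal RNA genes were removed, and 14065 were tested in limma 3.58.1 (voom with sample quality weights, TMM factors from edgeR 4.0.16, 1 mean per group, all 25 libraries, R 4.3.3), with Benjamini-Hochberg adjustment over all of them and a threshold of 0.05. This follows the test that the study's methods state. CPM in the text is TMM-scaled. On simulated counts with 200 genes changed (14069 genes), the fit recovered 87% of 2-fold and 97% of 4-fold changes in WD WT NAMPT against WD WT EV with 8 false calls, and 82% and 96% in WD LKO NAMPT against WD LKO EV with 16 false calls. The simulated libraries did not differ in quality, and only genes with a mean over 1 CPM were changed. These shares thus do not show that a 2-fold change in LKO livers would have been called. Alternatives were edgeR's quasi-likelihood test, DESeq2 1.42.0, no weights, library size alone, median-ratio factors, no filter, the compared groups only, a replicate block, 2 surrogate variables (sva 3.50.0) and each library left out. The 40 genes and all lists were chosen with earlier results of these data known. The rule for naming with statistics took the genes called in a comparison, or the 2 with the largest log2 change where none was called. To account for the whole set, uncalled genes are also given with values in WD WT NAMPT against WD WT EV, and the others named outside the rule (such as Tlr4 and Relb in LKO livers) were chosen after their values were seen. Per-library values are given for up to 8 called genes, taken first within each role. From the lists outside the set, the 3 largest rises and falls called at an average log2 CPM of at least 0 are named. Exonic overlaps and coordinates are from GENCODE on GRCm38, and promoter sequences are from RefSeq (GRCm38.p6).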

Additional observations from a re-analysis of the deposited data

Results flagged for a closer look

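Each gene's CPM was compared within the 4 groups of 5 or 6 libraries by Dixon's ratio, which singles out a highest or lowest library far from the rest. Of 160 gene and group pairs, 11 were singled out, and chance alone gives about 1 in 20. WD LKO NAMPT replicate 1 accounted for 4 of them, as the highest library of its group for Tlr1 (5.72 CPM, others 1.61 to 2.34), Tlr13 (8.72 CPM, others 2.20 to 3.90), Nfkb1 (30.6 CPM, others 27 to 27.2) and Tnfaip3 (13 CPM, others 4.97 to 7.02). The Kupffer cell marker sum of that library was 804 CPM, against 349 to 501 CPM in the other 4 of its group, and its part in these values was not tested.

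In WD LKO EV, replicate 1 was the highest for Traf1 (1.53 CPM, others 0.309 to 0.623) and Bcl3 (46.9 CPM, others 21 to 23.9), and replicate 3 for Irak3 (2.22 CPM, others 0.885 to 1.1). In WD WT EV, Tlr8 was lowest in replicate 7 (0.909 CPM, others 2.47 to 3.29), Tnf was lowest in replicate 6 (0.0916 CPM, others 0.491 to 0.675) and Traf2 was highest in replicate 1 (11.1 CPM, others 8.35 to 8.95). In WD WT NAMPT, Birc3 was lowest in replicate 6 (11.6 CPM, others 15 to 16.6).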

How the results depend on the processing

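For the 40 genes in WD WT NAMPT against WD WT EV, the count of 20 was 4 with edgeR's quasi-likelihood test, 1 without quality weights, 5 without the filter on low counts, 6 with the compared groups only and 0 with 2 surrogate variables, and 1 to 24 with 1 library left out. In WD LKO NAMPT against WD WT NAMPT the count of 8 was 0 with the quasi-likelihood test, DESeq2, no weights, no filter, the compared groups only and 2 surrogate variables, and 0 to 18 with 1 library left out. In WD WT EV against chow WT EV the count of 2 was 0 with the quasi-likelihood test, without weights and without the filter, 4 with median-ratio factors and with 2 surrogate variables, 6 with the compared groups only, and 0 to 4 with 1 library left out. The interaction count ran from 0 to 2 with 1 library left out. The causes were not tested, except that fewer libraries enter the left-out fits and more genes are adjusted for without the filter. No call of a gene of the set turned its direction under the alternatives run. Genes that were not called were mostly not followed across alternatives, and the outside lists were not. The count stayed at 0 under the alternatives run in WD LKO NAMPT against WD LKO EV and in WD LKO EV against WD WT EV. With 2 surrogate variables the set's median log2 value was 0.09 in place of 0.43 in WD WT NAMPT against WD WT EV, -0.10 in place of -0.35 in WD LKO NAMPT against WD WT NAMPT and -0.08 in place of -0.48 for the interaction.

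Replicate numbers are shared between groups, but the libraries are from different mice and their deviations from the group means correlated from -0.18 to 0.34 over 4 pairs in WD WT NAMPT against WD WT EV, so the numbers do not pair them. With a replicate block the counts were 7, 6 and 13 in place of 20, 8 and 2.

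Low reads limit Tlr6, Traf1 and Tnf most, with 1 to 23 reads per library in WD WT EV.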
